A study of Zea mays with 18 samples.

Results

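In control maize anthers, 37 genes lost 50% or more of their transcript level between stages S5-6 and S7, on counts scaled to library totals. Their control ratio of S5-6 to S3-4, with 0.1 CPM added to each mean, lay above 0.25 and below 8. In anthers of ZmCCT10 transgenic plants, 26 of the 37 rose from S5-6 to S7 and 3 fell by the edgeR test. The remaining 8 passed no test in either direction. Among all genes at a similar minimum level, 35.6% rose and 35.9% fell. The rises were small, and with an assumed spread of 20% between libraries in place of the estimated one 5 genes rose and 2 fell. Shares of all genes at that assumed spread are not given here. The genes were chosen from the control libraries alone, on CPM (the count of a gene as a share of its library's total, scaled to a fixed total). A gene had to have a control mean of 5 CPM or more at S5-6, a ratio of control S5-6 to control S7 of 2 or more, and a ratio of control S5-6 to control S3-4 above 0.25 and below 8, with 0.1 CPM added to each mean. Of 45578 genes in the count tables, 17454 reached 5 CPM in the S5-6 controls and 51 of these met the fall. The bounds on the S3-4 ratio then left out 14 genes, all with a ratio of 8 or more, and left 37, which is 0.212% of the genes at 5 CPM.

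An anther builds its wall layers around the cells that will enter meiosis, and the innermost wall layer, the tapetum, feeds the developing pollen before it degenerates. Transcripts of each phase appear and are cleared as the organ passes from one phase to the next. ZmCCT10 is a CCT-domain regulator known in maize for delaying flowering under long days.

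The libraries came from anthers of plants with an active ZmCCT10 transgene, written ZmCCT(+), and of non-transgenic plants, written ZmCCT(-) and called controls here. Each genotype was sampled at stages S3-4, S5-6 and S7, with 3 libraries a group and 18 libraries in all. The sources used here do not give the promoter of the transgene, the inbred line, the number of transgenic events, the age of the plants or any pooling of anthers. Whether the replicate libraries stand for separate plants is not stated in the labels, so p-values cover only library-to-library spread, which may be technical.

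Total counts ran from 14846974 to 23652182 a library, and between 28018 and 29256 genes had a count. The 3 S3-4 ZmCCT(+) libraries stood apart: their trimmed-mean (TMM) scaling factors lay between 0.845 and 0.854, against 0.961 to 1.08 in the other 15. CPM on library totals therefore read lower in those 3 libraries than scaled values do, and every statement on S3-4 ZmCCT(+) is given with that in view. None of the 37 identifiers, all of the Zm00001d kind, matched a name in the gene table used here, so no function is given for any of them. For the same reason the anther label could not be checked against marker genes. In bulk anther RNA, fewer cells of a type and less RNA per cell cannot be told apart.

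The control fall was a moderate one for most of the genes. The ratio of control S5-6 to S7 had a median of 2.29, with 28 genes below 2.5 and 3 genes at 3 or more, and ran from 2.02 to 8.90. All 37 had every S7 control library below every S5-6 control library, against 29.4% of the genes at 5 CPM. This ratio chose the genes, so it is a description and nothing is read from that count. The ratio of control S5-6 to S3-4 had a median of 1.26, above 1 for 31 genes and below 1 for 6. It was above 2 for 4 genes and reached 7.72 for Zm00001d022368, with control means of 0.957 CPM at S3-4 and 8.07 CPM at S5-6. On TPM (a level that is also divided by transcript length), the genes ran from 2.31 to 249 in the S5-6 controls with a median of 15.3. The median TPM ratio of S5-6 to S7 was 2.36, against 1.06 over the genes at 5 CPM. It was 2 or more for 35 of the 37 and as low as 1.65. Summed over the 37 genes, control CPM was 1555 ± 9.89 at S3-4, 1467 ± 36.9 at S5-6 and 652 ± 0.626 at S7 (mean ± SD, n = 3). The same sum in ZmCCT(+) rose, at 593 ± 20.8, 807 ± 8.53 and 983 ± 6.72, and on library totals S3-4 ZmCCT(+) reads low. The early part of the control sum leans on Zm00001d028180, with means of 641 CPM at S3-4 and 352 CPM at S5-6. In ZmCCT(+) the early rise of the sum leans on Zm00001d014867 (means of 15.1 and 155 CPM), Zm00001d026222 (6.18 and 51.5) and Zm00001d039563 (10.1 and 46.0). Zm00001d028180 went the other way there, from 133 to 64.8 CPM. In plain CPM, 25 of the 37 means were higher at S5-6 than at S3-4 in ZmCCT(+), and the rest were not. As given above, 31 genes had a control ratio of S5-6 to S3-4 above 1, so only the late step of the sums differs in direction for most genes.

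**Figure D1:**
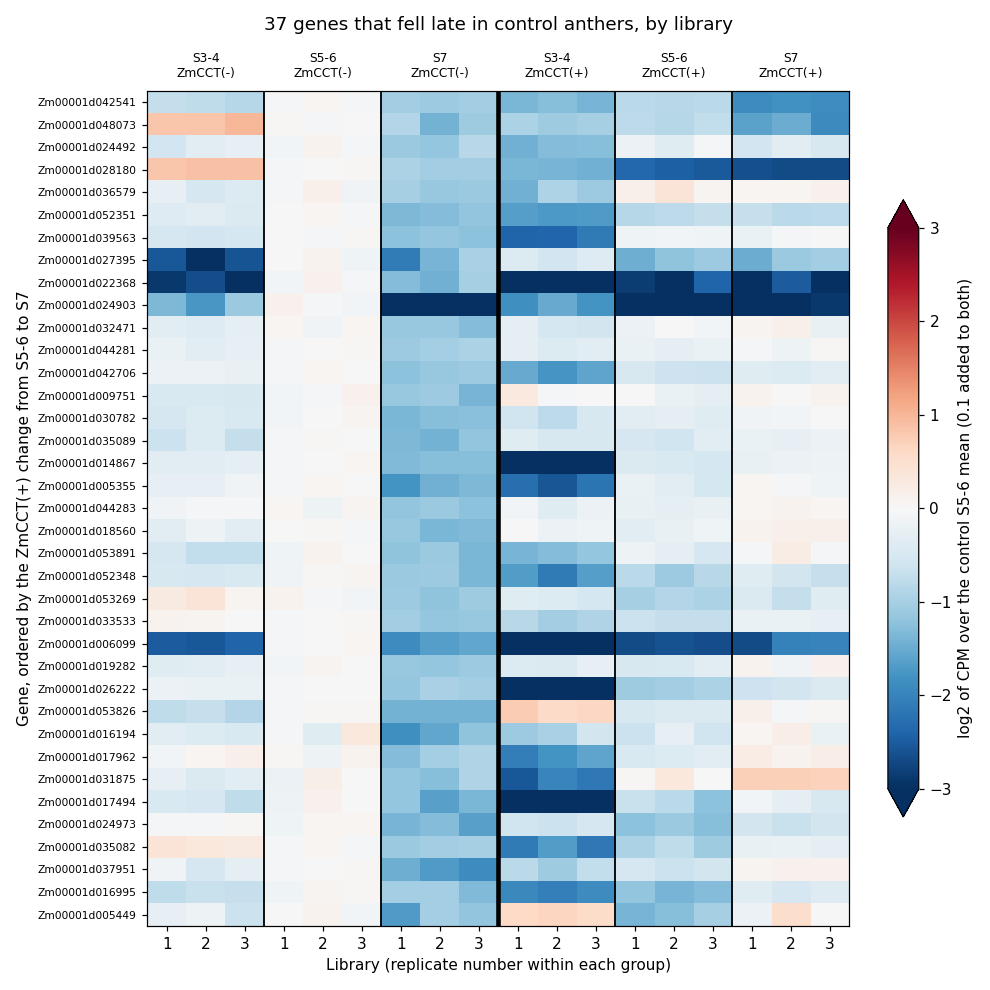
Level of each of the 37 genes in each of the 18 libraries, with genes down the side and libraries grouped by genotype and stage. Colour is log2 of CPM over the S5-6 control mean of the same gene, with 0.1 CPM added to both. Control columns are lower at S7 than at S5-6 in all 37 genes, by the rule that chose them, and 26 genes rose from S5-6 to S7 in ZmCCT(+).

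The most abundant gene in the S5-6 controls, Zm00001d028180 (chromosome 1, 25632515 to 25636718), fell over both steps in both genotypes. Its control libraries had 626, 649 and 649 CPM at S3-4, 344, 350 and 363 at S5-6 and 181, 170 and 170 at S7. In ZmCCT(+) it had 136, 134 and 130 CPM at S3-4, 68.4, 64.3 and 61.7 at S5-6 and 56.2, 54.8 and 54.7 at S7. All 9 ZmCCT(+) values were below all 9 control values, and the S7 group was below the S5-6 group without overlap. The second most abundant, Zm00001d014867 (chromosome 5, 66241452 to 66267159), held 210, 213 and 225 CPM in the S5-6 controls and 86.7, 89.5 and 89.1 in the S7 controls. Its ZmCCT(+) libraries climbed instead, with 15.3, 14.4 and 15.4 CPM at S3-4, 159, 157 and 150 at S5-6 and 186, 191 and 195 at S7. At S7 the groups of the 2 genotypes had thus changed places, with the transgenic libraries above the controls.

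The largest control fall belonged to Zm00001d024903 (chromosome 10, 93908317 to 93911235), from 10.6, 9.42 and 9.32 CPM at S5-6 to 1.09, 0.971 and 0.976 at S7. In ZmCCT(+) it was already low at S5-6, with 0.778, 0.972 and 1.14 CPM, and had 0.943, 0.888 and 1.22 CPM at S7, so those groups overlapped. The next largest, a 3.22-fold ratio, was that of Zm00001d006099 (chromosome 2, 198147947 to 198155511), with 12.9, 13.4 and 14.04 CPM in the S5-6 controls and 3.58, 4.22 and 4.53 in the S7 controls. At the threshold itself the genes differed little: Zm00001d044281 (2.02) and Zm00001d028180 (2.03) lay just inside, and Zm00001d037981 (1.999) and Zm00001d019698 (1.97) just outside.

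From S5-6 to S7 in ZmCCT(+), the step at which the controls fell, 26 of the 37 genes rose and 3 fell (edgeR quasi-likelihood F test, Benjamini-Hochberg adjusted p below 0.05 over 24694 genes). Of all genes tested, 31.4% rose and 32.3% fell, and of the genes at 5 CPM in the S5-6 controls 35.6% rose and 35.9% fell. These rises were small: they ran from 1.15-fold to 2.71-fold with a median of 1.41-fold. The median log2 fold change of the 37 was 0.33, against -0.0069 over all genes tested. The 9 ZmCCT(+) libraries were not used to choose the genes. The rises were separated by library as well, since 25 genes had every S7 library above every S5-6 library (35.2% of genes at 5 CPM) and 3 genes the reverse (39.0%). Only 1 gene rose and 1 fell by 2-fold or more, against 4.54% and 3.76% of the genes at 5 CPM. With the assumed spread of 20% the 26 and 3 became 5 and 2, and the shares of all genes at that setting are not given here.

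The largest late rise in ZmCCT(+) was that of Zm00001d005449 (chromosome 2, 174547876 to 174550578). It went from 3.21, 3.51 and 4.27 CPM at S5-6 to 7.68, 12.5 and 8.66 CPM at S7, with no overlap, a log2 fold change of 1.44 ± 0.16 (SE) and an edgeR adjusted p of 1.22e-11. Its control libraries moved from 8.60, 9.25 and 8.14 CPM to 2.62, 4.22 and 3.79 CPM over the same stages. Zm00001d016995 (chromosome 5, 182274146 to 182288499) followed, with 15.2, 13.3 and 14.1 CPM at S5-6 and 27.1, 24.6 and 26.6 CPM at S7. Its log2 fold change was 0.90 ± 0.079 (SE; edgeR adjusted p = 1.53e-17), while its controls held 32.2, 36.7 and 35.8 CPM and then 17.3, 17.1 and 13.9 CPM. For both genes the S7 ZmCCT(+) libraries were all above the S7 control libraries.

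The 3 genes that fell late in ZmCCT(+) also had the 3 S7 libraries of that genotype below those of S5-6. Zm00001d042541 (chromosome 3, 171421717 to 171425401) had 22.4, 22.0 and 22.4 CPM at S5-6 and 10.5, 11.1 and 10.6 CPM at S7, a log2 fold change of -1.03 ± 0.079 (SE; edgeR adjusted p = 2.57e-20). Its control libraries had 38.2, 41.1 and 38.2 CPM and then 19.0, 18.3 and 18.8 CPM. Zm00001d048073 (chromosome 9, 149386295 to 149389525) had 6.22, 5.96 and 6.50 CPM and then 3.50, 3.81 and 2.79 CPM, a log2 fold change of -0.86 ± 0.14 (SE; edgeR adjusted p = 2.39e-07). Zm00001d028180, whose values are given above, changed by -0.21 ± 0.038 (SE; edgeR adjusted p = 7.52e-07). Among the 8 genes that did not pass the test, Zm00001d024903 had a log2 fold change of 0.10 ± 0.29 and Zm00001d036579 one of -0.12 ± 0.14. Zm00001d006099 passed at an adjusted p of 0.0225 in edgeR although its groups overlapped, with 2.02, 2.11 and 2.05 CPM at S5-6 and 2.02, 3.24 and 3.26 CPM at S7. Without S7 replicate 2 or 3 its adjusted p was 0.127 or 0.111, and its annotated span overlaps that of Zm00001d006098.

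**Figure D2:**
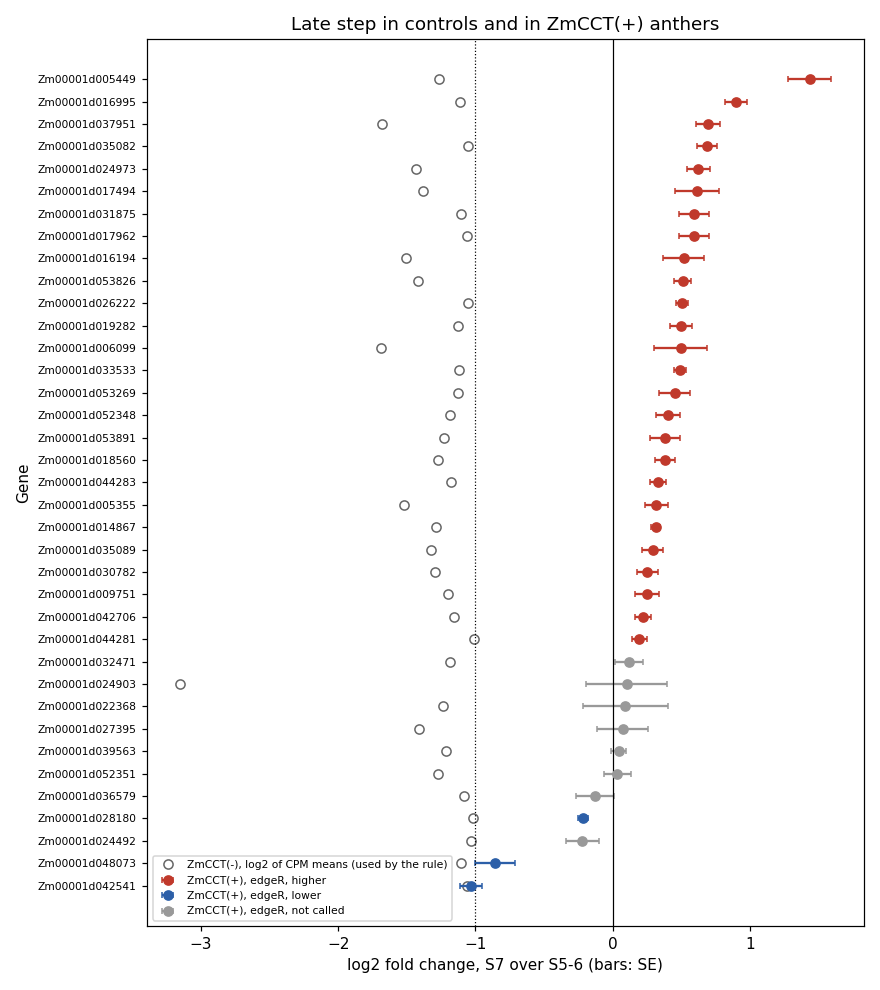
Log2 fold change from S5-6 to S7 of the 37 genes, in ZmCCT(+) with SE from the edgeR fit and in the controls without a test, since the controls chose the genes. In ZmCCT(+) the values run from -1.03 to 1.44 around a median of 0.33, while every control value lies at or below the 2-fold fall.

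The earlier step in ZmCCT(+), from S3-4 to S5-6, split the genes, as it did the genes at 5 CPM. After TMM scaling 18 rose (42.1% of all genes tested and 45.9% of the genes at 5 CPM) and 14 fell (43.8% and 44.2%), with 5 passing no test. The 14 became 8 with the assumed spread of 20% and 8 on either TPM scale, and 2 of the 14 had a higher CPM mean at S5-6 than at S3-4. On the TPM scales the median log2 over the genes at 5 CPM was 0.29 and 0.30, against 0.02 after TMM scaling. Shares of all genes at these settings are not given here. In plain CPM, 23 genes had every S5-6 library above every S3-4 library (57.8% of the genes at 5 CPM) and 7 the reverse (32.4%). By 2-fold or more 10 rose and 5 fell, against 24.6% and 18.8% of the genes at 5 CPM. The median log2 fold change was 0.04, against -0.03 over all genes tested, and without S3-4 ZmCCT(+) replicate 2 it was -0.02. On library totals alone the median was 0.36 and 25 genes were higher at S5-6, but the median over the genes at 5 CPM was then also 0.36, so the direction of the smaller changes depends on the scaling. For 5 genes the sign differed between the 2 scalings. Of the 26 genes that rose late, 12 had also risen at the earlier step, 11 had fallen and 3 had passed no test. The same split over all genes is not given here, so nothing is read from it. In plain CPM, which reads low in S3-4 ZmCCT(+), the lowest of the 3 ZmCCT(+) stage means was S3-4 for 23 genes, S5-6 for 11 and S7 for 3. After TMM scaling, 20 genes had an early log2 fold change above 0 and 17 one below 0.

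The widest early rise belonged to a gene nearly silent in S3-4 ZmCCT(+). Zm00001d017494 (chromosome 5, 197532011 to 197533798) had 6 counts over the 3 S3-4 libraries, at 0.0564, 0.112 and 0.153 CPM, and 232 counts at S5-6, at 4.46, 4.06 and 3.01 CPM. That gave a log2 fold change of 4.74 ± 0.36 (SE; edgeR adjusted p = 2.99e-21), and the S7 libraries held 6.74, 5.85 and 5.12 CPM. Its S3-4 controls had 5.15, 4.99 and 4.21 CPM, above each of those 3 S3-4 libraries. The climb of Zm00001d014867, given above, was 3.03 ± 0.045 on the log2 scale (SE; edgeR adjusted p = 2.21e-70). Zm00001d026222 (chromosome 10, 141445403 to 141450718) went from 6.26, 5.85 and 6.44 CPM at S3-4 through 49.8, 51.0 and 53.7 at S5-6 to 67.8, 71.4 and 76.8 at S7. Its controls stood at 92.1, 90.7 and 90.7 CPM at S3-4, 103, 105 and 106 at S5-6 and 46.5, 53.1 and 51.1 at S7.

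Other genes dipped at S5-6 in ZmCCT(+). Zm00001d005449 had 13.1, 13.6 and 12.8 CPM at S3-4, so its early log2 fold change was -2.19 ± 0.15 (SE; edgeR adjusted p = 1.53e-19) before the late rise given above. Zm00001d053826 (chromosome 4, 241891771 to 241932626) had 55.5, 49.2 and 50.6 CPM at S3-4, 23.7, 24.2 and 24.5 at S5-6 and 36.4, 32.2 and 33.6 at S7. Its early log2 fold change was -1.44 ± 0.059 and its late one 0.51 ± 0.063. In controls it had 19.5, 20.3 and 17.8 CPM, then 31.6, 33.5 and 33.7, then 12.3, 12.3 and 12.2, a peak at the stage of the transgenic trough. Zm00001d024903 fell from 2.65, 3.37 and 2.76 CPM at S3-4, by -1.94 ± 0.23 on the log2 scale (SE; edgeR adjusted p = 3.14e-12), and stayed near 1 CPM.

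**Figure D3:**
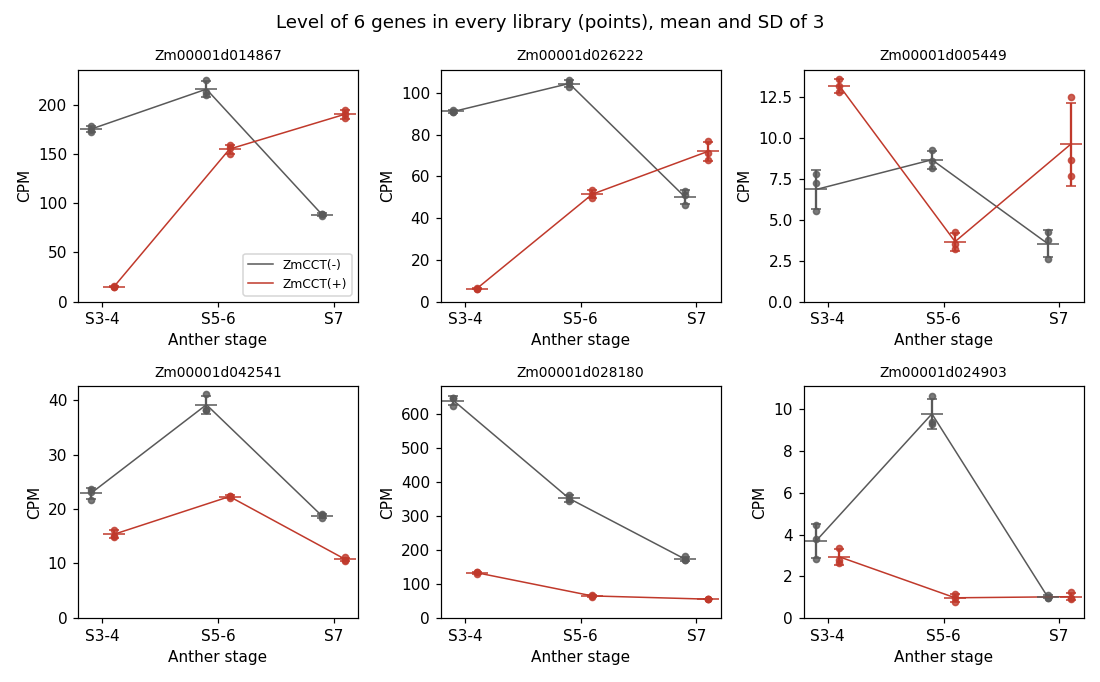
CPM of 6 of the genes in every library, by stage, with controls in grey and ZmCCT(+) in red, points for libraries, bars for the SD and lines through the means of 3 libraries. Zm00001d014867 and Zm00001d026222 cross between S5-6 and S7, whereas Zm00001d028180 stays lower in ZmCCT(+) at all 3 stages.

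Side by side, the genotypes differed in opposite directions before and at S7. The control libraries in these values also chose the genes, and the rule favours a high S5-6 and a low S7 control level, so the following is a description with no test. The ratio of ZmCCT(+) to ZmCCT(-) mean CPM had a median of 0.595 at S3-4 (0.820 over the genes at 5 CPM), 0.680 at S5-6 (1.01) and 2.15 at S7 (0.997). Controls were higher without overlap for 25 genes at S3-4 (55.7% of the genes at 5 CPM), for 31 at S5-6 (36.8%) and for 5 at S7 (33.5%). ZmCCT(+) was higher without overlap for 4 genes at S3-4 (31.1%), for 0 at S5-6 (37.2%) and for 30 at S7 (33.1%). The S7 ZmCCT(+) mean stood at a median of 0.869 of the S5-6 control mean, and exceeded it for 13 genes. Of the 6 group means, the highest was the S5-6 control for 19 genes and S7 ZmCCT(+) for 9, and the lowest was S3-4 ZmCCT(+) for 17 and the S7 control for 15. These means are CPM on library totals, which read lower in S3-4 ZmCCT(+), and shares over all genes are not given here.

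The ends of these ratios show how unlike the genes were. At S3-4 the ratio ran from 0.0425 for Zm00001d017494 and 0.0689 for Zm00001d026222 up to 2.69 for Zm00001d053826 and 4.70 for Zm00001d027395. Zm00001d027395 (chromosome 1, 4341041 to 4351530) had 1.34, 0.963 and 1.30 CPM in the S3-4 controls and 6.21, 5.57 and 6.29 CPM in S3-4 ZmCCT(+). At S5-6 it ran from 0.108 for Zm00001d024903 and 0.141 for Zm00001d022368 to 1.09 for Zm00001d031875 and 1.16 for Zm00001d036579. At S7 the lowest ratios were 0.319 for Zm00001d028180 and 0.332 for Zm00001d022368, and the highest 3.45 for Zm00001d037951 and 3.50 for Zm00001d031875. Zm00001d031875 (chromosome 1, 205091435 to 205093066) had 3.83, 3.54 and 4.65 CPM in the S7 controls and 14.3, 14.5 and 14.1 CPM in S7 ZmCCT(+), its highest group of the 6. Zm00001d037951 (chromosome 6, 143342335 to 143352982) had 6.97, 5.83 and 5.11 CPM against 20.3, 21.2 and 21.1 CPM at that stage. Zm00001d022368 (chromosome 7, 176188740 to 176190494) had 3.20, 2.91 and 4.02 CPM against 0.876, 1.36 and 0.930, so its transgenic libraries were the lower ones.

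Long genes were frequent among the 37, although 22 of 37 were above the median span and the rest were not. Their annotated genomic span, introns included, had a median of 7565 bases against 4246 over the genes at 5 CPM, and 17 of 37 (45.9%) exceeded 10000 bases against 14.2%. Gene length also moved with the control step itself. Among the genes at 5 CPM, the median log2 ratio of S7 to S5-6 in controls went from 0.18 in the shortest of 10 equal classes (107 to 1317 bases) to -0.18 in the longest (12092 to 128402 bases). All 3 S7 control libraries showed it, at 0.165 to 0.205 in the shortest and -0.200 to -0.171 in the longest class. Each was set against the same S5-6 control mean, so a shift in the S5-6 libraries would appear in all 3. In ZmCCT(+) the same medians stayed between -0.08 and 0.02. With the length trend removed within each library, a setting added after the data were seen, the control ratio of the 37 had a median of 2.23 and stayed at 2 or more for 28. Apart from that, the part of length or RNA quality in the fall was not tested. The ZmCCT(+) counts from S5-6 to S7 were again 26 risen and 3 fallen. Of the 17 genes over 10000 bases 13 rose late in ZmCCT(+) and 0 fell by the edgeR test (0 lower also at an unadjusted p below 0.05 and in DESeq2), against 38.6% and 29.9% of the genes of that length at 5 CPM. Of the 20 shorter ones 13 rose and 3 fell, against 35.1% and 36.9%. With the assumed spread of 20%, 2 of the 17 longer genes rose, with no share of all genes of that length at hand for that setting.

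**Figure D4:**
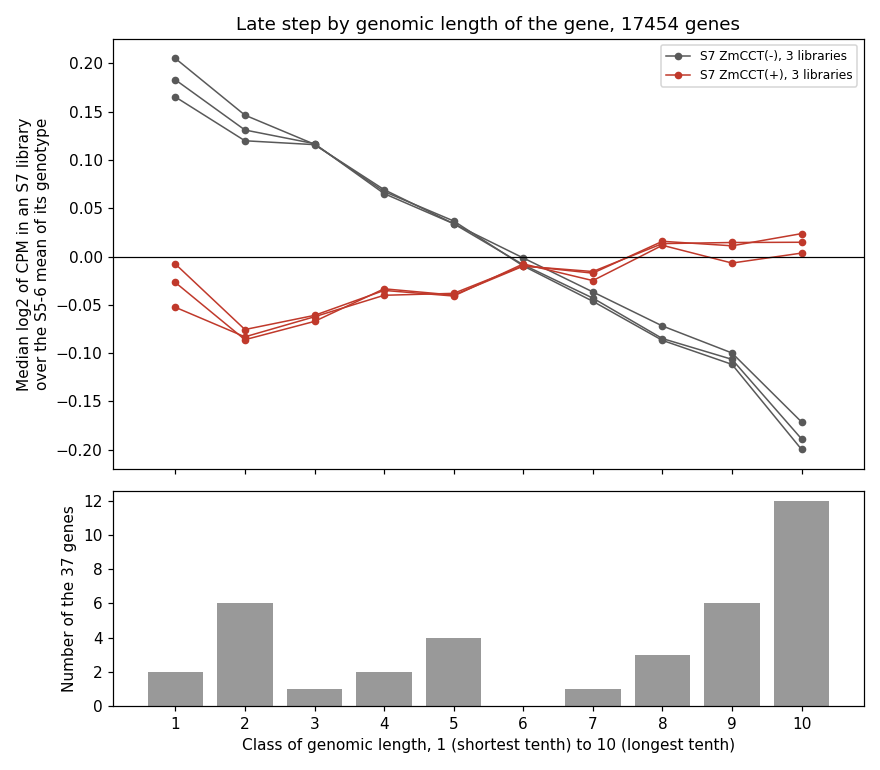
Median log2 ratio of S7 to S5-6 in 10 classes of genomic span, over genes at 5 CPM or more in the S5-6 controls, with 1 line for each S7 library (controls grey, ZmCCT(+) red), above a bar chart of how many of the 37 genes fall in each class. The control medians descend from 0.18 to -0.18 with span, and those of ZmCCT(+) lie between -0.08 and 0.02, while the longest class holds 12 of the 37 genes.

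The genes lay on all 10 chromosomes, with 6 each on chromosomes 1 and 5 and 1 each on 8 and 9. Of the genes, 3 pairs were close neighbours. Zm00001d044281 and Zm00001d044283 (chromosome 3, 223977953 to 224157144) are adjacent in the annotation, 124 kb apart, and ran nearly in parallel. Zm00001d044281 had 42.0, 39.4 and 42.3 CPM in S5-6 ZmCCT(+) and 46.7, 43.7 and 49.5 in S7 ZmCCT(+), a late log2 fold change of 0.20 ± 0.053 (SE; edgeR adjusted p = 0.000842). Zm00001d044283 had 34.6, 33.8 and 35.0 CPM and then 42.6, 43.4 and 42.2, a late log2 fold change of 0.33 ± 0.058 (SE; edgeR adjusted p = 8.05e-07). In both, the 3 S7 libraries of that genotype lay above the 3 of S5-6.

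Zm00001d052348 and Zm00001d052351 (chromosome 4, 187795917 to 187872521) are 50.9 kb apart with 1 gene between them. The first went from 16.9, 13.8 and 16.4 CPM at S5-6 to 23.0, 20.2 and 18.1 at S7 in ZmCCT(+), a log2 fold change of 0.40 ± 0.09 (SE; edgeR adjusted p = 7.4e-05). The second had 9.85, 10.5 and 11.01 CPM and then 11.2, 10.2 and 10.4, with overlapping groups and a log2 fold change of 0.04 ± 0.099. Zm00001d035082 and Zm00001d035089 (chromosome 6, 4052637 to 4738066) lie 626 kb apart with 6 genes between them. Both rose late in ZmCCT(+), by 0.69 ± 0.073 and 0.29 ± 0.078 on the log2 scale (SE; edgeR adjusted p = 1.18e-13 and 0.00065). Their early steps differed in sign, at 0.74 ± 0.089 and -0.38 ± 0.079. Besides Zm00001d006099, Zm00001d018560 and Zm00001d024973 overlap another annotated gene, and since the sources used here say nothing of strand, their counts are uncertain.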

How the data were processed

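The authors deposited raw counts per gene, 1 table per stage, and per-library tables with TPM and a coverage signal, the average depth over a gene, per the file headers. The submitters' processing notes name Bowtie2, StringTie and DESeq2. Build, strand setting and versions are not stated in those sources. Count columns were matched to samples by their names, and 18 of 18 correlated best with their own per-library table (r from 0.942 to 0.981 over 21087 genes). No column was left unused.

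The 37 genes and every list were chosen with earlier results of these data known. Levels are CPM on column totals. Tests used the raw counts: filterByExpr (minimum count 10, minimum total 15) kept 24694 genes, all 37 included, then TMM scaling and the robust quasi-likelihood F test of edgeR 4.0.16 (R 4.3.3, limma 3.58.1) were run on all 18 libraries in 6 groups with 12 residual degrees of freedom. Adjustment was by Benjamini-Hochberg over all genes tested, and 0.05 was the threshold. SE was taken from each log2 fold change and its F. The procedure was checked on simulated data. Replicates of a group differed beyond counting noise in all 18 pairs, with chi-square per gene from 1.57 to 3.03. The labels do not say that a replicate number marks a shared plant, batch or day, so no block was used in the main fit. At the early ZmCCT(+) step, deviations of libraries with the same number correlated at 0.036, 0.079 and 0.0078.

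Genes named in the text are the 2 highest and the 2 with the largest fall in controls, the 2 nearest each side of the threshold, the 2 lowest and highest called changes without overlap at each ZmCCT(+) step, the 2 lowest and highest genotype ratios at each stage, and members of neighbouring pairs. The 9 lists of symbols could not be used, since 0 of the Zm00001d identifiers matched the table of assembly Zm-B73-REFERENCE-NAM-5.0. Alternatives were limma-voom, the size factors and the test of DESeq2 1.42.0, limma-trend on log2(TPM + 1) and log2(TPM + 0.1), other count filters (none, minimum count 50), a replicate block, only the libraries compared, no S3-4 libraries, an assumed spread of 20% with edgeR's likelihood ratio test, other selection rules (10 CPM, 3-fold, TMM scaling) and leaving out each library. Removing the length trend was added after the data were seen.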

Additional observations from a re-analysis of the deposited data

Results flagged for a closer look

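For 13 of the named genes every S7 control library lay below every S5-6 control library while every S7 ZmCCT(+) library lay above every S5-6 ZmCCT(+) library. The difference between the genotypes was not tested, because the control fall chose the genes. The late log2 fold change in ZmCCT(+) was 1.44 for Zm00001d005449, 0.90 for Zm00001d016995, 0.69 for Zm00001d035082 and 0.69 for Zm00001d037951. It was 0.62 for Zm00001d017494, 0.59 for Zm00001d031875, 0.51 for Zm00001d026222 and 0.51 for Zm00001d053826. The smaller values were 0.40 for Zm00001d052348, 0.33 for Zm00001d044283, 0.31 for Zm00001d014867, 0.29 for Zm00001d035089 and 0.20 for Zm00001d044281. Over all 37 genes, 25 had every S7 ZmCCT(+) library above every S5-6 one, against 35.2% of the genes at 5 CPM; the control side holds for all 37 through the choice of the genes.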

How the results depend on the processing

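From S5-6 to S7 in ZmCCT(+), leaving out 1 ZmCCT(+) library gave 25 to 26 genes higher and 3 to 4 lower. The median log2 was then 0.32 to 0.36, with 1 gene each past 2-fold. DESeq2's test and the replicate block both gave 26 and 3; the block changed no call (replicate deviations correlated at -0.0016, 0.041 and 0.0060). With an assumed spread of 20%, 5 were higher, and at the earlier step 8 were lower. Choosing genes by a 3-fold fall left 3 genes: 2 higher and 0 lower late, 0 past 2-fold either way, median 0.50, and early 1 lower, 1 higher, 1 each past 2-fold, median -0.036. Choosing them after length removal gave 6 lower late, 2 lower and 3 higher past 2-fold late, and 8 lower past 2-fold early. On log2(TPM + 1) and log2(TPM + 0.1), 8 and 8 genes were lower early with medians 0.29 and 0.31. Over the genes at 5 CPM the early medians on these scales were also 0.29 and 0.30, against 0.02 in the main fit. On TPM + 1, 0 were 2-fold lower late and 3 early. A 10 CPM minimum gave 0 genes 2-fold higher late, and early 2 lower and 6 higher past 2-fold. For the early step, leaving out 1 ZmCCT(+) library gave 18 higher and 13 to 14 lower. By 2-fold or more 5 to 6 fell and 8 to 10 rose, and the median was -0.016 to 0.17. Leaving a control library out of the rule gave 36 to 41 genes, of which 2 to 4 were lower late. How many of those lists were higher late is not given here. Among named genes, signs turned only where the change had passed no test. Late, leaving out 1 library gave -0.17 to 0.36 for Zm00001d022368, -0.049 to 0.22 for Zm00001d024903, -0.018 to 0.19 for Zm00001d027395 and -0.0013 to 0.069 for Zm00001d052351. On the 2 TPM scales Zm00001d027395 had -0.0140 and -0.0246 and Zm00001d052351 -0.0122 and -0.0128, and with length removed the latter had -0.0015. Early, Zm00001d037951 had -0.12 to 0.034 leaving out 1 library, 0.022 with only the libraries compared and 0.21 and 0.23 on TPM, and Zm00001d048073 had 0.081 and 0.098 on TPM. The cause was not tested.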

Other observations

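The 14 genes with the same control fall that were set aside for a control S5-6 level 8 or more times that of S3-4 were mostly low in ZmCCT(+) anthers. Their ZmCCT(+) level at S5-6 was a median of 0.0191 of the control level, and 0.0349 at S7, with 0.1 CPM added to each mean. Over the genes at 5 CPM these medians were 1.01 and 0.997. At S3-4 the median was 1, with means of 1.79 CPM or less in both genotypes. A high S5-6 control level set these genes apart, so the ratios are a description with no test. Zm00001d053446 had means of 38.5 CPM in the S5-6 controls and 18.2 CPM in the S7 controls, against 1.38 CPM in S5-6 and 1.41 CPM in S7 ZmCCT(+). Zm00001d033206 had means of 26.9 and 10.5 CPM in the S5-6 and S7 controls, and 4.75 and 5.97 CPM in ZmCCT(+). Its late change in ZmCCT(+) did not pass the test (edgeR adjusted p = 0.0576). By that test 3 of the 14 fell late in ZmCCT(+) and 0 rose, against 35.9% and 35.6% of the genes at 5 CPM. With no count filter or the stricter one, 1 rose. These genes were looked at after their values were seen.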
